A study of Rattus norvegicus with 10 samples.

Results

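Long intergenic noncoding RNAs (lincRNAs) are transcripts from outside protein-coding genes that carry no long open reading frame. The 248 described here were chosen by their biotype (lincRNA) in the deposited tables and by their level, with a minimum of 10 FPKM for the mean over all 10 libraries. FPKM counts fragments per kilobase of gene, scaled to a depth set for the library, here near but not equal to its total of fragments. They were 8.20% of the 3023 lincRNA rows among 32545 rows. Of the other lincRNAs, 1071 had a mean of 1 to 10 FPKM, 1225 a mean above 0 and under 1 FPKM, and 479 were listed at 0 in every library. Their level is therefore a description, while the rule did not use the difference between the ages, although earlier results of these data were known.

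The libraries came from round spermatids of wild-type Brown Norway rats aged 4 to 6 months (young, 5 samples) or 18 to 20 months (aged, 5 samples). All rats were kept under normal conditions with free access to food and water. The cells were enriched by STA-PUT, a separation of testis cells by sedimentation, and each SMARTer mRNA library was made from 1.3 ug of total RNA. The labels name no animal for a sample, so p-values measure only the spread between these samples, which may be technical. In bulk samples, fewer cells of a type and less RNA per cell cannot be told apart.

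Round spermatids are the haploid cells that follow meiosis, before the nucleus condenses. Testis germ cells transcribe an unusually broad part of the genome, intergenic regions included, and their lincRNAs tend to be poorly conserved, restricted to the testis and of unknown function. Some lincRNAs start back to back with a coding gene and may share its promoter, while others lie far from any gene. Many noncoding transcripts are trimmed or destroyed by the nuclear exosome, and poly(A) tails protect those that are exported.

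Sequence around the start was at hand for few of these genes. In the RefSeq promoter table of build GRCr8, 6 of the 248 matched by name or synonym, each with 250 bases before to 50 after the start. The promoters of 3 of them are shown because they belong to the most abundant of the 6, to a lincRNA with a small unadjusted p between the ages (described below), and to the only lincRNA of the 248 on chromosome Y. Capitals mark matches on either strand to TGACGTCA or TGACGTAA (cyclic AMP response elements), AACTGNC (a core recognised by MYB factors such as the meiotic activator A-MYB), CCAAT or TATAAA.
RGD1565058, RefSeq 1700040F17Rikl, chrX:66197160-66197459, minus strand: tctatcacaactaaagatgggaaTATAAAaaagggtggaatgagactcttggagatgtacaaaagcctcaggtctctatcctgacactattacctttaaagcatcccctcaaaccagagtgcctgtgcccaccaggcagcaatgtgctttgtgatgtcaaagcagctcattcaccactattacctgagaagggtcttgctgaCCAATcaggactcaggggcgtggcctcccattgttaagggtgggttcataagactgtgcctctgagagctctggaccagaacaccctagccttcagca
LOC102549726, chr20:3880958-3881257, plus strand: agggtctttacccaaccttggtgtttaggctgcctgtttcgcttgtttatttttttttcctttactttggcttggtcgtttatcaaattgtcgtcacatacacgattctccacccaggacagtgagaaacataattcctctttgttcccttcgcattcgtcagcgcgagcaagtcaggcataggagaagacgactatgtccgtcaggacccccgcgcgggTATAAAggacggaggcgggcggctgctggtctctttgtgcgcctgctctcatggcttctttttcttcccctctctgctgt
LOC103694568, chrY:2762959-2763258, plus strand: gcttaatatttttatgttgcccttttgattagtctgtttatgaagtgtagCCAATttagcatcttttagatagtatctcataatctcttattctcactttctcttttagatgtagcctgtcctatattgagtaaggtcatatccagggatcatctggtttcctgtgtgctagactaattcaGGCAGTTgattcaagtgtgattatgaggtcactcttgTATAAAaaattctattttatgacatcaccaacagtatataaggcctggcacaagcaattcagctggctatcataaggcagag
Positions are of a match's first printed base, with the start base as 0. LOC102549726 held TATAAA at -30 and LOC103694568 at -32, the distance at which a TATA box usually lies. The deposited tables place LOC102549726 on the minus strand, so its RefSeq promoter may not be that of the gene measured. RGD1565058 held CCAAT at -48 and its TATAAA far upstream, at -227. LOC103694568 held AACTGNC on the minus strand at -69 and CCAAT at -200. Of all 27457 promoters in the table, 14.3% held TATAAA, 37.7% CCAAT, 13.3% AACTGNC, 1.91% TGACGTCA and 0.889% TGACGTAA. Among the 6 matched lincRNAs, 3 held TATAAA, 2 CCAAT, 2 AACTGNC and 0 either cyclic AMP element. RefSeq lists AABR07024653.1, which held AACTGNC, and RGD1565989 as protein-coding. It gives 4 promoters for LOC102550206, of which a single promoter was used. The matches describe letters in this window and no binding was measured.

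Another 9 lincRNAs started head to head with a protein-coding gene, within 300 bp of it on the opposite strand. Promoters of 7 of these coding genes were in the table, and those of RGD1562532 and LOC501180 were not used. A pair of these promoters is shown because it alone of the 7 held AACTGNC, a choice made after the matches were seen. Ccnyl1, a cyclin Y relative needed for sperm motility, is 127 bp from AC111319.2, and Pkdrej, a sperm membrane protein, is 62 bp from AC141997.1. The table holds 2 promoters for Ccnyl1, of which the first was used. The distances are from the coordinates in the deposited tables, with the build unknown from the sources used here, so the starts were not matched between the sources.
Ccnyl1, chr9:73565234-73565533, plus strand: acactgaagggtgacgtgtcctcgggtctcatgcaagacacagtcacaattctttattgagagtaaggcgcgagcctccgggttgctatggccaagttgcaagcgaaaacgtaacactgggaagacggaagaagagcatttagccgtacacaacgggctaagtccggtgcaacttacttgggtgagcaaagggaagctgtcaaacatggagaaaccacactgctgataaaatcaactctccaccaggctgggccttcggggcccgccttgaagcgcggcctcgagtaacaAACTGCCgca
Pkdrej, chr7:118795264-118795563, minus strand: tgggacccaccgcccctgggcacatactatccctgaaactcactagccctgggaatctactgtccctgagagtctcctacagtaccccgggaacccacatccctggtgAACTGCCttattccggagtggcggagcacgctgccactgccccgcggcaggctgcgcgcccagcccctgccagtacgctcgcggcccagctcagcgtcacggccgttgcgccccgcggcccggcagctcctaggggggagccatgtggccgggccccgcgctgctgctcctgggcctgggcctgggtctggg
AACTGNC stood at 40 in the Ccnyl1 promoter and at -142 in that of Pkdrej. None of the 7 held TATAAA or a cyclic AMP element, 2 held AACTGNC and 1 CCAAT. Their median GC content was 69.7%, with 53.3% for Ccnyl1 and 70.0% for Pkdrej, against 52.3% over all promoters in the table.

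The lincRNAs covered a wide range of levels with few at the top. A level of 100 FPKM or more was reached by 12, another 20 lay at 50 to 100 FPKM, 75 at 20 to 50 FPKM and 141 at 10 to 20 FPKM. The median of the means was 17.4 FPKM, and the 12 highest held 30.8% of the summed FPKM of all 248. In every library 186 stood at 10 FPKM or more, and 247 at 1 FPKM or more. The names of 239 were those of a clone or contig, 6 had a LOC symbol and 3 an RGD symbol, and the tables gave a description for 9.

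AABR07005779.5 (ENSRNOG00000057003, chromosome 1, 198405394 to 198408505, minus strand) had the highest level, 99th among all genes. It stood at 597, 531, 533, 567 and 682 FPKM in young replicates 1 to 5, and at 650, 545, 592, 550 and 543 FPKM in aged replicates 1 to 5. The ranges of the groups overlapped almost wholly. The young mean was 582 ± 62.3 FPKM and the aged mean 576 ± 46.0 FPKM (SD, n = 5). Their log2 difference was -0.01 (SE 0.08), whose sign turned with the scaling (0.0018 with TPM scaling, 0.017 with quantile scaling and 0.013 with voom). Its nearest coding gene, Cdipt, which makes phosphatidylinositol, starts 855 bp away on the other strand and averaged 6.90 FPKM.

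Rn60_X_0740.2 (chromosome X, 73081934 to 73087400, minus strand) came next, with young values of 241, 335, 335, 297 and 299 FPKM. Its aged values were 415, 288, 332, 286 and 302 FPKM. Aged replicate 1 was the highest library and young replicate 1 the lowest, and the other 8 lay together. AABR07028137.1 (chromosome 17, 57730964 to 57732413, minus strand) had young values of 167, 227, 208, 233 and 248 FPKM and aged values of 248, 241, 263, 229 and 272 FPKM. Young replicate 1 was again lowest. The log2 difference was 0.22 (SE 0.10, limma, unadjusted p = 0.0432, adjusted p = 0.413), the only one of the 12 highest with an unadjusted p under 0.05, and it was 0.13 without young replicate 1.

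The rest of the 12 highest lay close in both groups. AABR07072272.1 on chromosome 12 had a young mean of 229 ± 6.81 FPKM and an aged mean of 238 ± 14.3 FPKM. For LOC102548479 on chromosome X these were 217 ± 30.5 and 235 ± 19.6 FPKM. AC103129.1 and AC103129.5, 8393 bp apart on the plus strand of chromosome 7 among olfactory receptor genes, had young means of 187 ± 23.7 and 179 ± 27.4 FPKM and aged means of 176 ± 20.2 and 181 ± 28.2 FPKM. Their nearest coding neighbours, the olfactory receptors Olr1107 and Olr1106, averaged 1.71 and 0.92 FPKM, far under the lincRNAs between them.

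AABR07004783.1, AC125688.1, AC111319.2, AC098022.2 and AC095390.1 had young means of 130 ± 6.58, 114 ± 6.14, 105 ± 6.92, 107 ± 13.3 and 97.3 ± 4.84 FPKM. Their aged means were 132 ± 7.53, 102 ± 16.9, 107 ± 4.36, 96.2 ± 15.1 and 103 ± 7.63 FPKM. The groups overlapped for each of the 12.

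**Figure D1:**
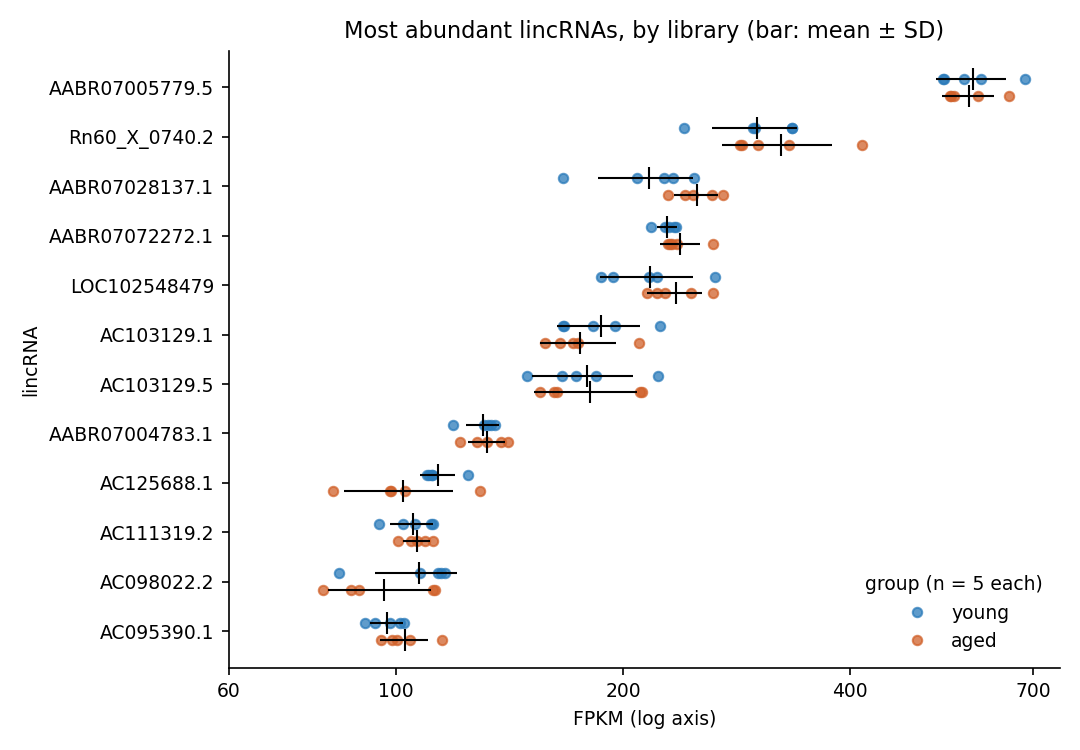
FPKM on a log axis of the 12 lincRNAs with the highest mean, with 1 point per library (blue young, orange aged, 5 each) and black bars for mean ± SD. Young and aged points overlap in every row, and AABR07005779.5 lies between 531 and 682 FPKM, above all others.

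The 3 lincRNAs with RGD symbols differed in kind. RGD1565058 on chromosome X, described in the tables as similar to a mouse RIKEN cDNA, had young values of 89.9, 85.1, 93.3, 102 and 112 FPKM and aged values of 115, 105, 107, 96.5 and 88.1 FPKM, with wide overlap. RGD1565989 on chromosome 2 (127916171 to 127947952) overlaps Larp1b, an RNA-binding protein gene, on the same strand. The overlap is only at its start, as Larp1b ends at 127916378. RefSeq lists RGD1565989 as the protein-coding Larp1bl, so its biotype differs between the sources. Its means were 16.9 ± 2.92 (young) and 16.4 ± 1.93 (aged) FPKM, against 123 FPKM for Larp1b. Fragments within the shared stretch cannot be told apart here. RGD1562521 on chromosome X averaged 14.9 ± 1.12 and 15.9 ± 2.46 FPKM. RefSeq also lists AABR07024653.1 as protein-coding, under the name Antxrl3.

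Just above the minimum lay AC128967.2 (means of 10.17 young and 10.02 aged FPKM) and AABR07031278.1 (10.7 and 9.35 FPKM). Just below lay AABR07013689.2 (8.87 and 11.01 FPKM) and AABR07003354.1 (9.996 and 9.853 FPKM).

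No lincRNA passed the test between aged and young samples. limma was fitted to log2(FPKM + 1) of the 12985 genes whose mean reached 1 FPKM, and 0 of them (0%) had a Benjamini-Hochberg adjusted p under 0.05. All 248 lincRNAs were among the genes tested, 0 passed, and the smallest adjusted p was 0.319. With voom on fragments recovered from the FPKM values, 0 passed too. At an unadjusted p under 0.05 stood 34 of the 248 (13.7%), beside 1544 genes (11.9%) in all, and 32 with voom. Of these, 21 lincRNAs (8.47%) were higher in aged samples, against 5.54% of all genes, and 13 (5.24%) lower, against 6.35%. With voom, 25 of the 32 were higher. Single libraries moved these counts: 13 were higher without aged replicate 1, 33 without aged replicate 4 and 32 without young replicate 5. Without young replicate 4 there were 24 in all, 17 of them higher. The count over all 12985 genes, in either direction, moved too. It was 1295 without aged replicate 1, 1719 without aged replicate 4, 2183 without young replicate 5 and 1203 without young replicate 4. With voom it was 1536. How many of these genes were higher in aged samples was not counted in these fits, so the lincRNA counts by direction have no like background there.

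The differences were small in both directions. The fitted difference was above 0 for 138 lincRNAs (55.6%), against 45.5% of all genes tested. Without young replicate 1 the count was 124, and with voom 162 (65.3%). The 45.5% belongs to the main fit, and with voom the differences over all genes were shifted up too, as given below. The median log2 difference was 0.03, with 5th and 95th percentiles of -0.20 and 0.28. It was -0.02 over all genes tested, -0.02 over protein-coding genes of at least 10 FPKM and -0.02 over the lincRNAs at 1 to 10 FPKM. The median rested on single libraries: it was 0.00043 without young replicate 1, 0.016 without aged replicate 3, 0.043 without aged replicate 2, 0.057 without aged replicate 4 and 0.066 without young replicate 5, and with each other library left out it moved by less than 1.5 times. It was 0.041 with TPM or quantile scaling, 0.051 with voom and 0.064 over the 107 lincRNAs of at least 20 FPKM. Over all genes tested the median was -0.0035 with TPM scaling, -0.014 with quantile scaling and 0.0058 with voom. A difference of at least 0.5 in size was fitted for 3 lincRNAs (1.21%), against 3.57% of all genes.

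The 6 lincRNAs with the smallest unadjusted p were all higher in the aged mean, and all had overlapping groups and an adjusted p of 0.319. AABR07015547.1 (chromosome 14, 62674435 to 62677678, plus strand) had young values of 10.1, 14.8, 8.22, 12.7 and 9.10 FPKM and aged values of 19.1, 18.6, 15.7, 15.2 and 14.3 FPKM. Only young replicate 2 reached into the aged range. The means were 10.99 ± 2.71 and 16.6 ± 2.13 FPKM (SD, n = 5), with a log2 difference of 0.57 (SE 0.14, limma, unadjusted p = 0.00201).

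AABR07016947.1 (chromosome 15, 5365579 to 5372929, minus strand) had young values of 40.3, 51.0, 54.3, 44.7 and 42.8 FPKM and aged values of 73.5, 67.2, 49.3, 86.9 and 62.8 FPKM. Aged replicate 3 was the only aged library within the young range. The log2 difference was 0.52 (SE 0.13). AC107505.1 (chromosome 18, 53447317 to 53518870, plus strand) had young values of 35.2, 48.2, 45.9, 50.01 and 54.3 FPKM and aged values of 58.1, 67.7, 58.4, 53.0 and 62.5 FPKM, and differed by 0.36 on the log2 scale (SE 0.11). Only young replicate 5 and aged replicate 4 overlapped.

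AABR07065566.1 (chromosome 6, 134718590 to 134720457, plus strand) had a log2 difference of 0.36 (SE 0.11), with young values of 28.2, 44.0, 35.5, 38.7 and 43.3 FPKM. Its aged values were 50.8, 49.0, 49.4, 43.2 and 50.8 FPKM. AABR07004733.2 (chromosome 1, 153446051 to 153461943, minus strand) averaged 27.6 ± 2.92 and 32.7 ± 2.02 FPKM, 0.24 apart on the log2 scale (SE 0.07). Young replicate 1 was the lowest library for 4 of the 6, namely AABR07016947.1, AC107505.1, AABR07065566.1 and AABR07004733.2. Without it the log2 differences of these 4 were 0.47, 0.27, 0.27 and 0.20.

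LOC102549726 (chromosome 20, 4871264 to 4873982, minus strand), whose RefSeq promoter with a TATAAA at -30 is printed above, had the narrowest groups of the 6. Its young values were 17.04, 15.3, 15.2, 15.6 and 16.2 FPKM and its aged values 16.2, 18.3, 18.2, 20.1 and 19.05 FPKM, with a log2 difference of 0.20 (SE 0.06). Aged replicate 1 was the only aged library within the young range. It lies in a stretch of the major histocompatibility complex where the tables list Ltb and Tnf, a pair of cytokine genes, on 2 rows each, overlaps AABR07044408.1, and is on the plus strand in RefSeq, so near-identical copies may share its fragments.

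**Figure D2:**
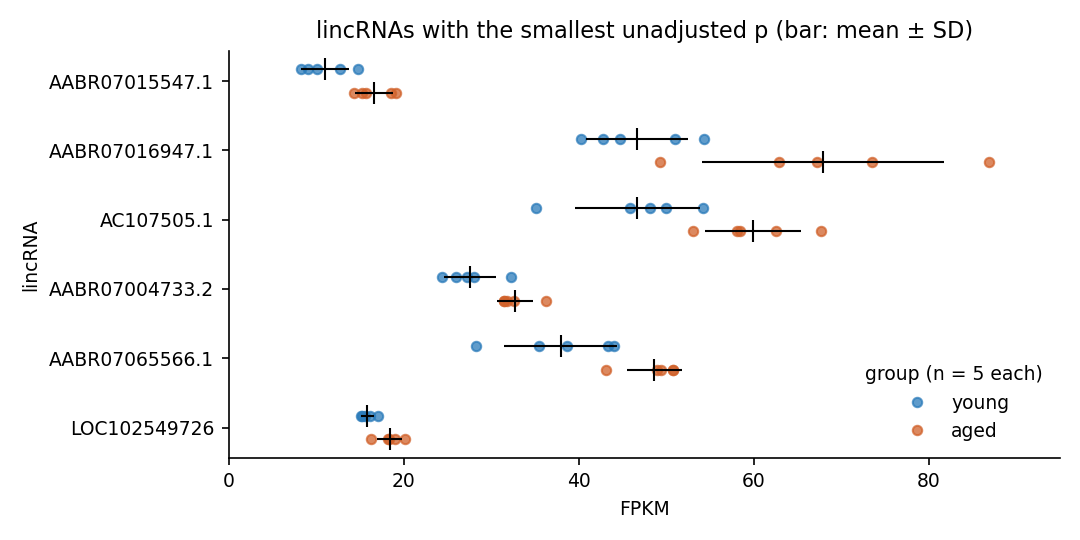
FPKM of the 6 lincRNAs with the smallest unadjusted p, with 1 point per library (blue young, orange aged, 5 each) and black bars for mean ± SD. The aged mean is higher in each row, and in each row at least 1 point of a group falls within the range of the other.

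The young and aged values did not overlap for 2 of the lincRNAs (0.806%), both lower in aged samples, against 338 genes (2.6%) in all, of which 1.24% were lower and 1.36% higher. Both are named here after their values were seen. Rn60_20_0056.5 (chromosome 20, 3403204 to 3403731, minus strand), 980 bp downstream of Mdc1, a DNA damage mediator, had young values of 15.5, 13.9, 13.5, 13.3 and 12.8 FPKM and aged values of 10.4, 8.32, 11.9, 12.3 and 12.1 FPKM. Its log2 difference was -0.31 (SE 0.10, limma, unadjusted p = 0.00917, adjusted p = 0.324), with aged replicate 2 the lowest library. AABR07026509.1 on chromosome 16 ranged from 17.7 to 18.4 FPKM in the young libraries and from 16.8 to 17.6 FPKM in the aged ones, with a log2 difference of -0.06 (SE 0.04, unadjusted p = 0.137). The count of 2 was 4 with TPM scaling, 8 without young replicate 2, 5 without young replicate 3, 14 without young replicate 5, 5 without aged replicate 1, 4 without aged replicate 3, 11 without aged replicate 4 and 4 without aged replicate 5. Fewer libraries overlap less by construction. The count over all genes was not made under these settings, so these counts have no share beside them.

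Across the 10 libraries the median deviation ranged more widely for the lincRNAs than for abundant coding genes, though not in each library. Each gene's log2(FPKM + 1) was taken as a deviation from its mean over the 10 libraries. The median over the 248 was -0.149 in young replicate 1, and 0.044, -0.015, -0.015 and 0.080 in the other young libraries. In the aged libraries it was 0.088, -0.027, 0.084, -0.070 and 0.058. Over the 5540 protein-coding genes of at least 10 FPKM it lay within -0.037 and 0.030 in every library. In aged replicate 2 these coding genes deviated further than the lincRNAs (-0.037 against -0.027), and in young replicate 4 as far (0.015 and -0.015). In aged replicate 5, coding genes of 500 to under 1000 bp stood at 0.107 and lincRNAs of these lengths at 0.079. In young replicate 1, 181 of the 248 were below their own mean and 92 had their lowest value. Aged replicate 4 came close in the first count, with 178 below their mean, but 29 had their lowest value there. These counts were not made for the coding genes.

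In young replicate 1 the shorter lincRNAs lay furthest below their means. The median deviation there was -0.200 for 70 lincRNAs under 500 bp, -0.157 for 101 from 500 to under 1000 bp, -0.127 for 60 from 1000 to under 2000 bp and -0.030 for 17 of 2000 bp or more. For coding genes of the same lengths it was -0.068, -0.058, -0.019 and 0.036. Among the 17 longest lincRNAs young replicate 1 was not the lowest library, as aged replicates 2, 4 and 5 stood at -0.102, -0.066 and -0.099. Within every length class the lincRNAs thus lay lower in this library than the coding genes. The lincRNAs were short, with a median gene length of 683.5 bp (130 to 5121 bp) against 1961.5 bp for these coding genes and 520 bp for the lincRNAs at 1 to 10 FPKM. As a share of all recovered fragments the 248 held 0.646 ± 0.0339% in young and 0.671 ± 0.0308% in aged libraries (SD, n = 5). Young replicate 1 had the lowest share, 0.590%. The other 4 young libraries averaged 0.660 ± 0.0151%.

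**Figure D3:**
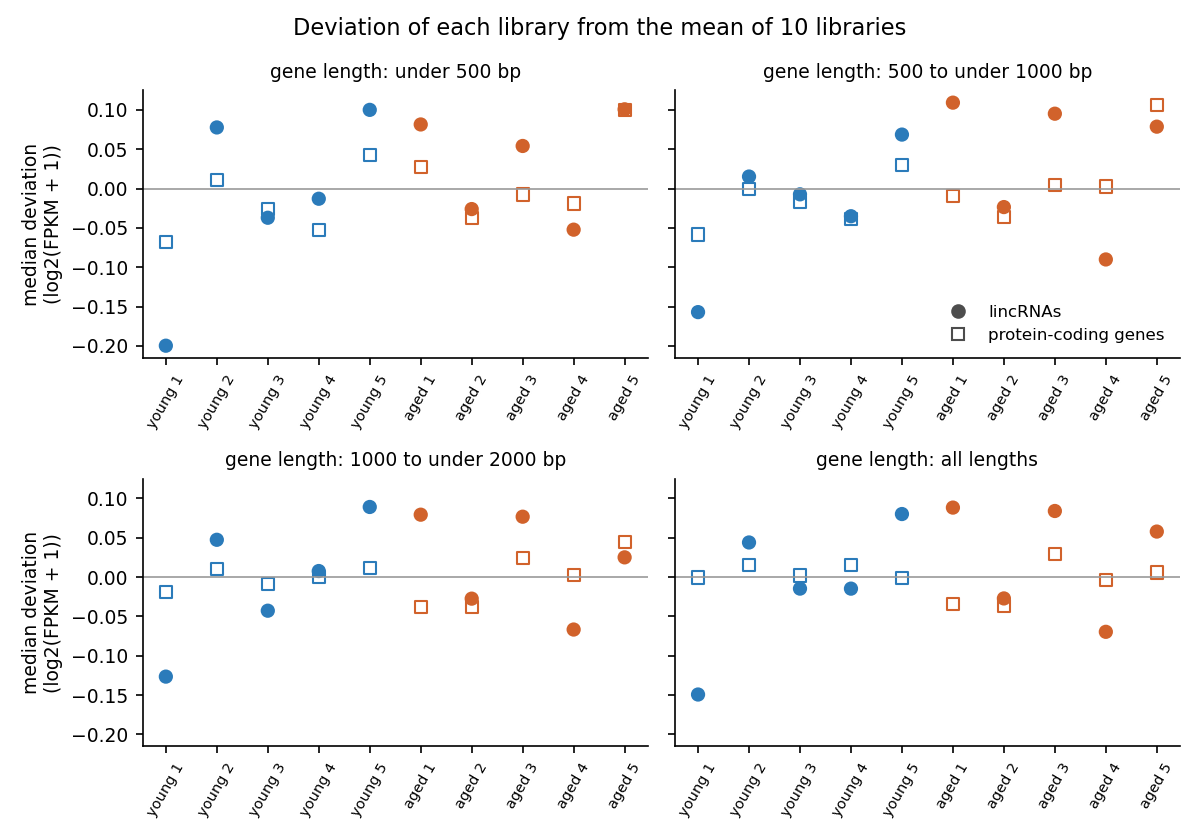
Median deviation from the mean of 10 libraries, in log2(FPKM + 1), for the abundant lincRNAs (filled circles) and protein-coding genes of at least 10 FPKM (open squares), by library and gene length (blue young, orange aged). Young replicate 1 is the lowest circle in each of the 4 panels drawn (genes of 2000 bp or more have no panel of their own), at -0.200 for lincRNAs under 500 bp and -0.149 over all lengths, where the squares lie within -0.037 and 0.030.

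Young replicate 1 also had the lowest level of round spermatid markers. The 15 listed genes, such as Acrv1 and Spaca1 of the acrosome and the spermatid kinase Tssk1b, summed to 2512 FPKM there and to 2861 to 3087 FPKM in the other young libraries. In aged libraries they summed to 2913 to 3279 FPKM. All 15 were tested, 13 were higher in the aged mean and 0 passed, with a median log2 difference of 0.09. Acr, the acrosin gene, was the only one with an unadjusted p under 0.05 (230 ± 7.84 and 248 ± 13.6 FPKM). Of the 10 libraries, young replicate 1 also had the highest sums of the spermatocyte (386 FPKM) and spermatogonium (102 FPKM) lists below. Its late spermatid sum, 39452 FPKM, came after that of young replicate 5 alone (44962 FPKM). The part of these marker differences in the lincRNA values was not tested.

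Round spermatid markers were abundant in both groups, and the sums of the lists for spermatocytes, spermatogonia and somatic testis cells were lower. Spermatocyte markers summed to 323 to 386 FPKM (young) and 278 to 358 FPKM (aged), and 4 of 13 tested had an unadjusted p under 0.05, all lower in aged samples. Spermatogonium markers summed to 81.8 to 102 FPKM and 78.4 to 101 FPKM, and late spermatid markers, whose messages are first made in round spermatids, to 28192 to 44962 FPKM and 27954 to 36024 FPKM. Markers of Leydig cells summed to 35.7 to 42.0 FPKM (young) and 45.1 to 155 FPKM (aged), those of peritubular and stromal cells to 71.8 to 114 and 120 to 371 FPKM, of Sertoli cells to 28.4 to 36.7 and 34.9 to 137 FPKM, and of macrophages to 17.8 to 34.2 and 24.3 to 139 FPKM. At an unadjusted p under 0.05, 10 of 13 tested peritubular, 7 of 12 macrophage, 2 of 5 Leydig and 1 of 5 Sertoli markers were higher, and 1 macrophage marker (Adgre1) was lower. Of these 4 lists 0 markers passed, and none of the listed markers was at 0 in every library. Aged replicate 2 had the highest sum in each of the 4 lists and aged replicate 1 the next. Without both, 0 of the 248 lincRNAs passed and 23 had an unadjusted p under 0.05, beside 972 of the 12985 genes tested. The log2 differences of the 6 above were then 0.45 (AABR07015547.1), 0.47 (AABR07016947.1), 0.32 (AC107505.1), 0.34 (AABR07065566.1), 0.26 (AABR07004733.2) and 0.26 (LOC102549726).

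The spread within groups was also wider at the median. The median pooled within-group SD of log2(FPKM + 1) was 0.180, against 0.105 for the coding genes of at least 10 FPKM. It was lower for longer genes, from 0.213 under 500 bp over 0.185 and 0.164 to 0.143 at 2000 bp or more, with 0.176, 0.138, 0.110 and 0.0937 for coding genes of these lengths. A lincRNA had a median of 247.25 fragments per library and a coding gene 1267.5. The SD was larger in the aged group for 115 of the 248, and its median was 0.180 in young (0.138 without young replicate 1) and 0.162 in aged samples. Among the coding genes it was larger in the aged group for 2677 of 5540. Their median was 0.101 in young (0.0826 without young replicate 1) and 0.0975 in aged samples.

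AABR07056374.1 (chromosome 7, 22982362 to 22986371, minus strand), only 136 bp long as counted, varied most, with a pooled SD of 1.91. Its young values were 33.1, 12.1, 14.6, 0.46 and 8.10 FPKM and its aged values 0, 17.9, 19.5, 37.6 and 24.8 FPKM. These came from 76, 29, 29, 1 and 17 fragments and from 0, 40, 46, 86 and 55 fragments, so a count of 0 in aged replicate 1 stands beside 86 in aged replicate 4. Its log2 difference of 0.41 (SE 1.03) became -0.28 without young replicate 4.

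AABR07026125.1 (chromosome 16, 64982382 to 64984767, minus strand), 253 bp, had the lowest log2 difference of the 248, -0.73 (SE 0.29, limma, unadjusted p = 0.026, adjusted p = 0.382). Its young values were 18.96, 19.99, 13.8, 18.8 and 8.71 FPKM and its aged values 12.8, 9.88, 10.3, 10.4 and 3.88 FPKM, with replicate 5 the lowest of each group. AABR07019254.1 and AABR07010033.1, 350 and 156 bp long, followed, with young means of 9.56 ± 3.76 and 12.8 ± 3.66 FPKM and aged means of 11.3 ± 1.12 and 15.0 ± 5.02 FPKM.

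Most of the lincRNAs lay more than 5 kb from a protein-coding gene. The median distance to the nearest protein-coding gene was 41143 bp, against 64624 bp for the lincRNAs at 1 to 10 FPKM and 42577 bp for those under 1 FPKM. Within 5 kb of such a gene lay 41 (16.5%), against 10.9% and 15.8%. The nearest coding gene had a mean under 1 FPKM for 103 of the 248 (41.5%), against 45.7% and 52.2% in the other lincRNA classes. Of the 41 near a gene, 18 were head to head with it, 8 tail to tail, 6 downstream and 5 upstream of it on the same strand, and 4 overlapped it. Head to head thus made up 43.9% of the 41. It made up 51.3% of the near lincRNAs at 1 to 10 FPKM and 32.6% of those under 1 FPKM. By chromosome, X held 10 of the 248 (4.03%) and 3.05% of the genes tested.

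For 32 of the 41 the neighbour had a mean of 1 FPKM or more, and the pair was compared over the 10 libraries. Pearson's r of log2(FPKM + 1) was positive for 23 of the 32 pairs, with a median of 0.30. After Benjamini-Hochberg adjustment over the 32 pairs, r passed in 4, all positive, and Spearman's rho in 2 of these. The permutations ran over all 10 libraries without regard to age, so a difference between the ages shared by both genes also counts towards r. The libraries share the pattern described above for young replicate 1, and with a strand setting not given in the sources used here, fragments of adjacent genes may be shared.

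AC113785.3 (chromosome 16, 69029267 to 69035436, plus strand) starts 1088 bp downstream of the end of Got1l1, a relative of aspartate aminotransferase, on the same strand. Its young values were 14.99, 21.7, 16.4, 22.9 and 18.7 FPKM and its aged values 20.3, 13.4, 18.965, 14.9 and 14.2 FPKM. Those of Got1l1 were 51.5, 62.3, 53.7, 65.5 and 60.2 FPKM (young) and 59.4, 48.1, 59.0, 47.0 and 44.8 FPKM (aged). The libraries fell in nearly the same order, with r = 0.955 (permutation test, adjusted p = 0.00224), rho = 0.927 (adjusted p = 0.0128) and r = 0.985 without the 2 libraries farthest from the median of Got1l1.

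AABR07021946.1 (chromosome 13, 100068519 to 100072757, plus strand) lies 2450 bp downstream of LOC690288, also on the same strand. Its log2 difference was -0.27 and that of LOC690288 -0.30. Their r was 0.918 (permutation test, adjusted p = 0.00496), rho 0.891 (adjusted p = 0.0178) and r without the 2 farthest libraries 0.826. AABR07049474.1 and RGD1562532, 39 bp apart and head to head, had r = 0.873 (permutation test, adjusted p = 0.0137), rho = 0.685 (adjusted p = 0.161) and r = 0.641 without 2 libraries. Rn60_X_0744.7 and Gm14597, head to head at 1685 bp on chromosome X, had r = 0.836 (permutation test, adjusted p = 0.0185), rho = 0.806 (adjusted p = 0.0818) and r = 0.5995 without 2 libraries.

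The head-to-head pairs whose promoters are printed above differed from each other. AC141997.1 averaged 12.5 FPKM and Pkdrej 38.1 FPKM, with r = 0.702 (permutation test, adjusted p = 0.116). AC111319.2 averaged 106 FPKM and Ccnyl1 134 FPKM, with r = -0.243 (permutation test, adjusted p = 0.639). AC132760.1 averaged only 18.8 FPKM at 254 bp from Tcp11, a sperm motility gene at 1113 FPKM, with r = -0.384. Over the 9 pairs within 300 bp, r ran from -0.501 (Rn60_X_0645.1 and Apoo) to 0.873, and none of the 4 negative r passed (permutation test, adjusted p from 0.325 to 0.639). Without the 2 farthest libraries r was 0.032 for Rn60_X_0645.1 and Apoo, 0.084 for AC111319.2 and Ccnyl1, -0.427 for AC112557.2 and Cbl, and -0.751 for AC132760.1 and Tcp11. For AC141997.1 and Pkdrej it was 0.404.

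**Figure D4:**
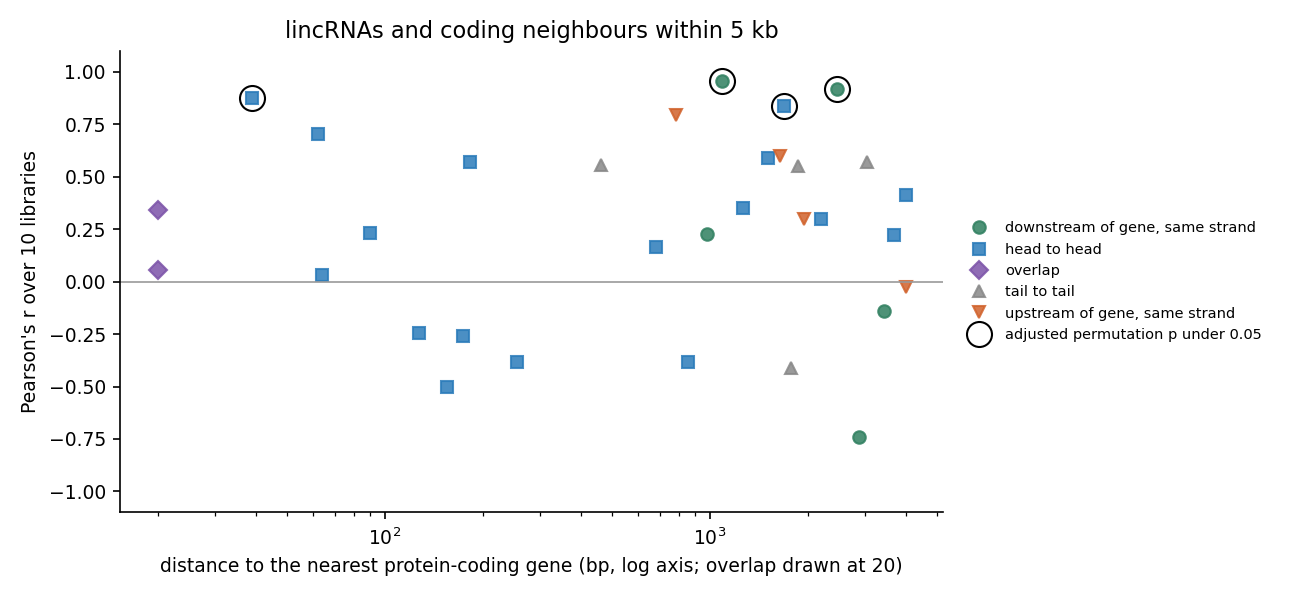
Pearson's r over 10 libraries between a lincRNA and its nearest protein-coding gene within 5 kb, against the distance in bp on a log axis, with 1 symbol per pair by orientation (overlapping pairs drawn at the left edge). The 4 ringed pairs have an adjusted permutation p under 0.05 and r from 0.836 to 0.955, and pairs under 300 bp spread from -0.501 to 0.873.

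Some of the lincRNAs were each other's neighbours. Adjacent ones lay within 50 kb in 15 pairs, 10 of them on the same strand. Their r was positive in 13 pairs, and r passed the adjustment over the 15 in 7 pairs and rho in 4. AC103129.5 and AC103129.1 of the olfactory receptor region had r = 0.705 (permutation test, adjusted p = 0.0473) and rho = 0.527 (adjusted p = 0.169).

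All 4 pairs that passed by both measures belonged to a run of 6 lincRNAs on the plus strand of chromosome 12, from 22338800 to 22389456. In order they are AABR07035780.4, AABR07035780.5, AABR07035780.3, AABR07035780.2, AABR07035780.1 and AABR07035782.1, with gaps of 432, 5319, 5060, 1842 and 289 bp. The run was singled out after these values were seen. AABR07035780.4 had young values of 11.4, 13.5, 14.2, 13.2 and 12.9 FPKM and aged values of 22.5, 11.1, 12.7, 10.6 and 10.6 FPKM. The mean over the 6 was 13.5, 15.7, 15.3, 15.8 and 15.2 FPKM in the young libraries and 18.9, 13.2, 15.2, 13.6 and 11.3 FPKM in the aged ones. Aged replicate 1 was the highest library for 5 of the 6 and aged replicate 5 the lowest for 5 of the 6, so the aged libraries spanned the young ones on both sides.

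Adjacent members of the run had r between 0.850 and 0.903, each with an adjusted p of 0.0054 or less (permutation test, smallest 0.0019), and rho between 0.745 and 0.927. Without the 2 libraries farthest from the median of the first of a pair, r lay between 0.697 and 0.921. AABR07035779.1, 17185 bp before the run on the same strand, had r = 0.522 with its first member (permutation test, adjusted p = 0.161). Separate transcripts and parts of a longer transcript cannot be told apart from gene-level values.

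**Figure D5:**
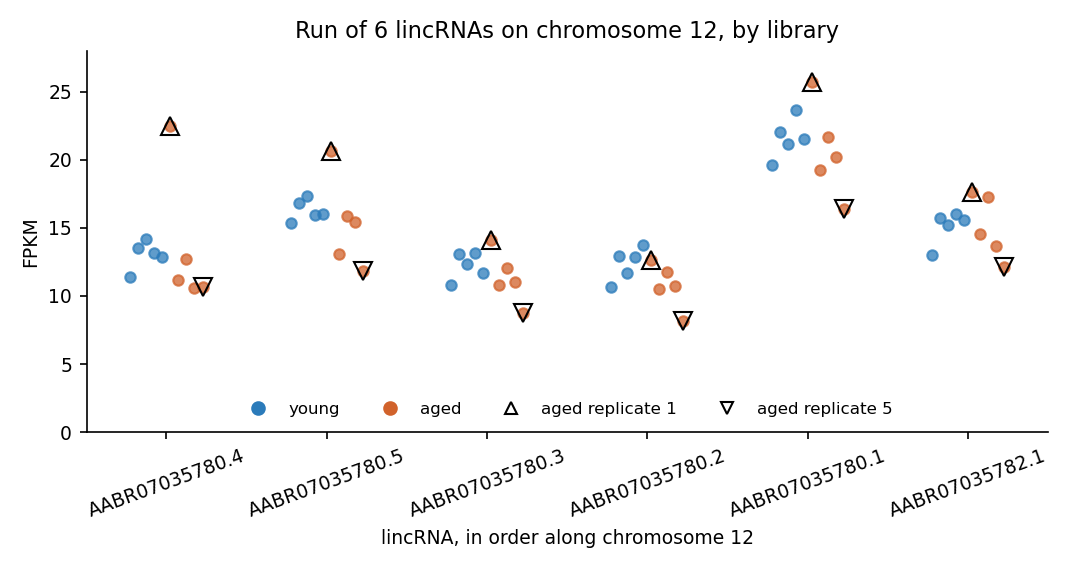
FPKM of the 6 lincRNAs of the run on chromosome 12 in their order along it, with 1 point per library (blue young, orange aged, 5 each). Upward triangles mark aged replicate 1, at 22.5 FPKM for AABR07035780.4, and downward triangles aged replicate 5, the lowest library for 5 of the 6.

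Long noncoding RNAs of known function were nearly absent under their usual names. Of 54 listed, 4 matched a row: Tsx, a testis transcript near the X inactivation centre that the tables call protein-coding, Snhg11, Miat and Terc. Only Tsx was tested, with means of 7.38 ± 0.924 (young) and 9.53 ± 2.73 (aged) FPKM (log2 difference 0.30, SE 0.15). Snhg11 averaged 0.972 and 0.793 FPKM, and Miat and Terc were at 0 in the young mean.

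Of 37 listed genes of the exosome, poly(A) tail binding, export and nonsense-mediated decay, 35 matched and 33 were tested. 0 passed, with a median log2 difference of -0.01. At an unadjusted p under 0.05, 1 was higher and 2 lower in aged samples. These were Upf3b, an X-linked decay factor (17.01 ± 1.101 and 19.6 ± 1.18 FPKM), Smg1, the kinase of the decay pathway (31.4 ± 2.71 and 26.9 ± 1.38 FPKM), and Zfc3h1, which links the exosome to polyadenylated noncoding RNA (10.9 ± 1.13 and 8.84 ± 0.804 FPKM). The poly(A) binding protein gene Pabpc1 averaged 1612 ± 73.9 and 1576 ± 98.9 FPKM, and the exosome subunit gene Exosc10 35.7 ± 0.826 and 35.6 ± 1.79 FPKM.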

How the data were processed

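Gene values of 10 libraries (5 young, 5 aged) were analysed as deposited. The authors used HISAT2 2.0.5, an aligner, and featureCounts 1.5.0-p3, a read counter, per the submitters' processing notes, which give no settings. The deposited unit is FPKM, per the file headers, with a genome build, annotation and strand setting not given in the sources used here. Whole fragments, recovered from FPKM and gene length within 0.001, totalled 14488222 to 18203223 per library, so that 1 FPKM over 1 kb stands for 14.6 to 18.6 fragments. The depth to which FPKM was scaled was 0.966 (young replicate 5) to 1.025 (aged replicate 2) times the library's recovered total. The part of this in the differences between fits was not tested. limma 3.58.1 (R 4.3.3, lmFit and eBayes with trend, two-sided, Benjamini-Hochberg, threshold 0.05) was fitted to log2(FPKM + 1) of all genes whose mean reached 1 FPKM, and fold changes are on that scale, which understates those of low genes. The fit was tested on simulated data. Correlations used 100000 permutations over all 10 libraries, without regard to age. Alternatives were another pseudocount, filters, scalings, voom, a replicate block, leaving out libraries and other minimum levels; the fit without aged replicates 1 and 2 was chosen after seeing the data. The members, gene lists and tests were chosen with earlier results of these data known. Named were the 12 highest lincRNAs, the 6 with the smallest p, the 4 with the largest spread, those with RGD names, those next to the 10 FPKM minimum, coding genes within 5 kb of these, and genes of the lists by level or unadjusted p; others are said to be named after their values were seen or come from the pairs within 5 kb. Promoters are RefSeq's (GRCr8).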

Additional observations from a re-analysis of the deposited data

Results flagged for a closer look

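In 6 of the 58 sets of 5 libraries that the named lincRNAs give, a library lay far from the other 4 by Dixon's 95% criterion, which chance meets in about 1 in 20 sets. AABR07072272.1 was high in aged replicate 5, with 263.6 FPKM against 229.3 to 235.6 FPKM elsewhere in its group. AABR07004783.1 was low in young replicate 5, at 118.9 FPKM against 131.0 to 135.4 FPKM. AC125688.1 was high in the same library, at 124.6 FPKM against 109.9 to 111.8 FPKM. AC098022.2 stood at 84.1 FPKM in young replicate 1, against 107.7 to 116.2 FPKM in the other young libraries. AABR07004733.2 reached 36.3 FPKM in aged replicate 3, against 31.5 to 32.6 FPKM. AABR07065566.1 was low in aged replicate 4, at 43.2 FPKM against 49.0 to 50.8 FPKM.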

How the results depend on the processing

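No lincRNA passed under any alternative run; over all genes the count was 0 to 1 when a library was left out (SNORD14 without young replicate 1, AC117925.6 without young replicate 2). Leaving out libraries in turn gave 24 to 45 lincRNAs at an unadjusted p under 0.05, beside 1155 to 2183 of all genes tested. It gave 124 to 155 lincRNAs higher in aged samples, 2 to 14 without overlap and a median difference of 0.00043 to 0.066. Those without overlap numbered 4 with TPM scaling, 7 without aged replicates 1 and 2, and 0 among the 107 lincRNAs of at least 20 FPKM; 492 had at least 5 FPKM. Genes without overlap were not counted over all genes under these alternatives. The cause of these shifts was not tested, beyond fewer libraries or lincRNAs. Of 551 values of 29 named lincRNAs, 526 kept direction and side; 25 reversed, in 8 lincRNAs. AABR07005779.5 reversed to 0.0018, 0.017 and 0.013 with TPM scaling, quantile scaling and voom, AC103129.5 to -0.0083 with quantile scaling, AC128967.2 to 0.0012 with voom, and, without aged replicates 1 and 2, AABR07004783.1 to -0.033, RGD1565989 to 0.042 and AABR07003354.1 to 0.14. Leave-outs ranged from -0.056 to 0.047 for AABR07005779.5, -0.050 to 0.093 for AC103129.5, -0.014 to 0.047 for AABR07004783.1, -0.014 to 0.044 for AC111319.2, -0.28 to 1.34 for AABR07056374.1, -0.12 to 0.045 for RGD1565989, -0.047 to 0.0026 for AC128967.2 and -0.12 to 0.060 for AABR07003354.1. Whether replicate numbers pair the libraries is not given by the labels. Same-numbered deviations correlated at -0.141, -0.158, 0.0097, -0.018 and 0.054, and 1 of 5 numbers matched best with itself. These 5 values show no pairing but cannot exclude one. With the replicate block, 37 lincRNAs had an unadjusted p under 0.05, beside 1255 of all genes tested, 138 were higher and 0 passed (smallest adjusted p 0.261). Depth limits the short lincRNAs most, at a median of 99.75 fragments per library under 500 bp.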
